A study of Mus musculus with 21 samples.

Results

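The stretch described here is the near part of the gene desert upstream of Satb1 on mouse chromosome 17, from 51.980 to 52.199 Mb (mm9). It was chosen by position alone: all positions in that interval, which begins 6 kb from the signal peak of the Satb1 promoter viewpoint, in each of the 7 libraries made at this locus. The files hold 1 value per 1000 bp, so the desert contributed 220 positions per library, or 1540 of the 14771 positions in the 21 libraries of the series, and all 1540 held a value in the 5 kb smoothing window used throughout.

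The method, 4C-seq, ligates fixed chromatin and counts which fragments were joined to 1 chosen fragment, the viewpoint, so that signal at a distant position measures how often it lay close to the viewpoint in the cell population. Formaldehyde at 2% for 10 minutes was the fixative in every library. The Satb1 promoter was profiled with NlaIII and DpnII in adult thymus (C57BL/6 mice), in ES cells of the line IB10/E14, and in fetal brain (C57BL/6, 14.5 days post coitum). A viewpoint labelled -470 kb was profiled with DpnII and Csp6I in thymus and ES cells. A pair of further thymus viewpoints next to the promoter were labelled +1.5 kb (NlaIII and Csp6I) and -6 kb (DpnII and Csp6I). The labels name no genetic change and no drug in any group. The thymus material came from 1 animal per preparation, brains of several embryos were pooled, and the ES cells were a single cultured line kept with leukemia inhibitory factor. All 4 thymus libraries could share an animal, since the labels do not say otherwise. Whole thymus and whole fetal brain hold many cell types, so a lower signal in all cells and a contact made by fewer cells cannot be told apart. Each group was 1 library, so every comparison here is between libraries and has no replicate check, no test and no p-value.

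Satb1 encodes a nuclear protein that binds AT-rich DNA and organizes chromatin loops, and it is best known for its high expression in developing T cells of the thymus, where it is needed for their maturation. Long stretches without protein-coding genes often flank such developmental regulators, and they can hold distant enhancers that reach the promoter by folding of the chromatin. In the RefSeq gene table (GRCm38.p6), used for the order of genes only, 5 gene models lie between Satb1 and the next protein-coding gene on the desert side, Kcnh8, which encodes a potassium channel subunit. These are 4 long non-coding RNAs (Gm20098 nearest to Satb1, then Gm19585, Gm41600 and Gm27217) and 1 pseudogene, Gm19197. How their coordinates correspond to the mm9 positions of the profiles was not determined.

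The sequence that looks out onto the desert is the Satb1 promoter. RefSeq lists 5 starts for the gene in the promoter table used, and the 250 bases before each of the outermost 2 are shown, since they face the desert and show which of the enzymes can cut there. Capitals mark the recognition sites searched, catg for NlaIII, gatc for DpnII and gtac for Csp6I, each of which reads the same on both strands and overlaps none of the others here. The coordinates are those of GRCm38.p6 and cannot be set beside the mm9 positions of the profiles.
Satb1 start 1, chr17:51833291-51833540, minus strand: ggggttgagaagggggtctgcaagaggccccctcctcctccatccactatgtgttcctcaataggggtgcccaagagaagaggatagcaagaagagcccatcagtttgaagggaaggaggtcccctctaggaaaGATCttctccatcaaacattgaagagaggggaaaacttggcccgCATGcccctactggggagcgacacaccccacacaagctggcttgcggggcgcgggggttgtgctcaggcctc
Satb1 start 2, chr17:51832648-51832897, minus strand: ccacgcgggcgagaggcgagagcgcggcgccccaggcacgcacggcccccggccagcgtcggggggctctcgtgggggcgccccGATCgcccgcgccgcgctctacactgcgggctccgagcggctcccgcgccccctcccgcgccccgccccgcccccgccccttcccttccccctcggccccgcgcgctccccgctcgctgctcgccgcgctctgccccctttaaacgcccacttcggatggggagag
The outermost start had 1 NlaIII and 1 DpnII site in this window, the next start had 1 DpnII site, and neither window held a Csp6I site. Among 32817 such windows in the RefSeq promoter table, 53.9% held an NlaIII site, 41.9% a DpnII site and 31.5% a Csp6I site. G and C made up 58% of the first window and 80.8% of the second. Sequence of the desert itself in mm9 was not used here.

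Middle values next to the viewpoint reached 1 or somewhat more, up to 1.85 in the +1.5 kb library. The scaling behind this is read from the values and is not stated, so raw values of different libraries were not taken to share a unit. Relative signal is therefore the signal divided by the library's own mean beyond 10 kb of the viewpoint. Observed over expected (O/E) divides the mean signal of a stretch by its mean expectation, read from a curve that can only fall with distance and was fitted to both sides of the viewpoint in the same library, with 10% of the library mean added to both. An O/E of 1 is what distance alone predicts. As an indication of technical scatter, the full and 1/16 template libraries of another viewpoint, the Hba-a1 promoter in fetal liver, differed by more than 2-fold in O/E at 21.5% of 326 positions, with an SD of 0.90 in log2 over positions and 0.42 over 18 bins of 20 kb. In relative signal, with the same pseudocount, they differed by more than 2-fold at 69.0% of these positions, with an SD of 1.05 in log2. This pair measures neither biological spread nor the scatter at Satb1.

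From the promoter the near desert lay above the library mean in all 3 tissues. Thymus ranked highest when signal was divided by the mean of the whole library, but scaled to the desert side of the viewpoint alone it was below ES cells, by -0.32 in log2, and above brain by 0.24. The middle signal averaged 0.0289 in thymus, where the outer columns of the window averaged 0.00702 and 0.115. In ES cells it averaged 0.0127 (0.00445 to 0.0357) and in brain 0.0416 (0.0167 to 0.0785). As relative signal the thymus level was 3.56, that of ES cells 2.55 and that of brain 2.06. The desert held 16.9% of the positions beyond 10 kb in these libraries but 60.0% of the signal (thymus), 42.9% (ES cells) and 34.8% (brain). The 5 positions within 10 kb, which were left out of these means, held signals of 0.166 to 0.275 (thymus), 0.0985 to 0.224 (ES cells) and 0.283 to 0.370 (brain).

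Against the decay expected from distance, the desert stood above expectation in thymus alone among the promoter libraries. O/E over the whole stretch was 1.64 (thymus), 0.961 (ES cells) and 0.992 (brain). The difference of log2 O/E was 0.77 between thymus and ES cells and 0.73 between thymus and brain, comparisons which share the thymus library, and -0.05 for ES cells against brain. All 3 differences were below 2-fold. With the decay of the desert side alone they were -0.034, -0.022 and 0.01. That fit sets each O/E near 1 by construction, so it cannot decide whether the tissues differ over the whole stretch.

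The clearest contrast lay between the sides of the promoter. The Satb1 gene and its downstream flank occupy the other side, from 51749000 to 51968000 at the same distances as the desert. In thymus the desert carried 6.67 times the mean signal of that side, against 0.922 times in ES cells and 0.992 times in brain. Position by position, the desert exceeded its counterpart at the same distance at 202 of 215 distances (thymus), 88 (ES cells) and 114 (brain). In units of the library mean, to which the desert itself contributes, relative signal of the gene side was 0.534 in thymus, 5.18-fold below the 2.76 of ES cells and 3.89-fold below the 2.08 of brain, whereas the desert in thymus was 1.40-fold and 1.73-fold above these tissues. On the gene side of the thymus library 92 of 215 positions sat at a single recurring value, 0.152 times the library mean. Since O/E uses the decay of both sides, a low gene side lowers the expectation for the desert too. With the decay fitted on the desert side alone, O/E over the stretch comes out near 1 by construction, and log2 O/E was -0.035 in thymus.

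**Figure D1:**
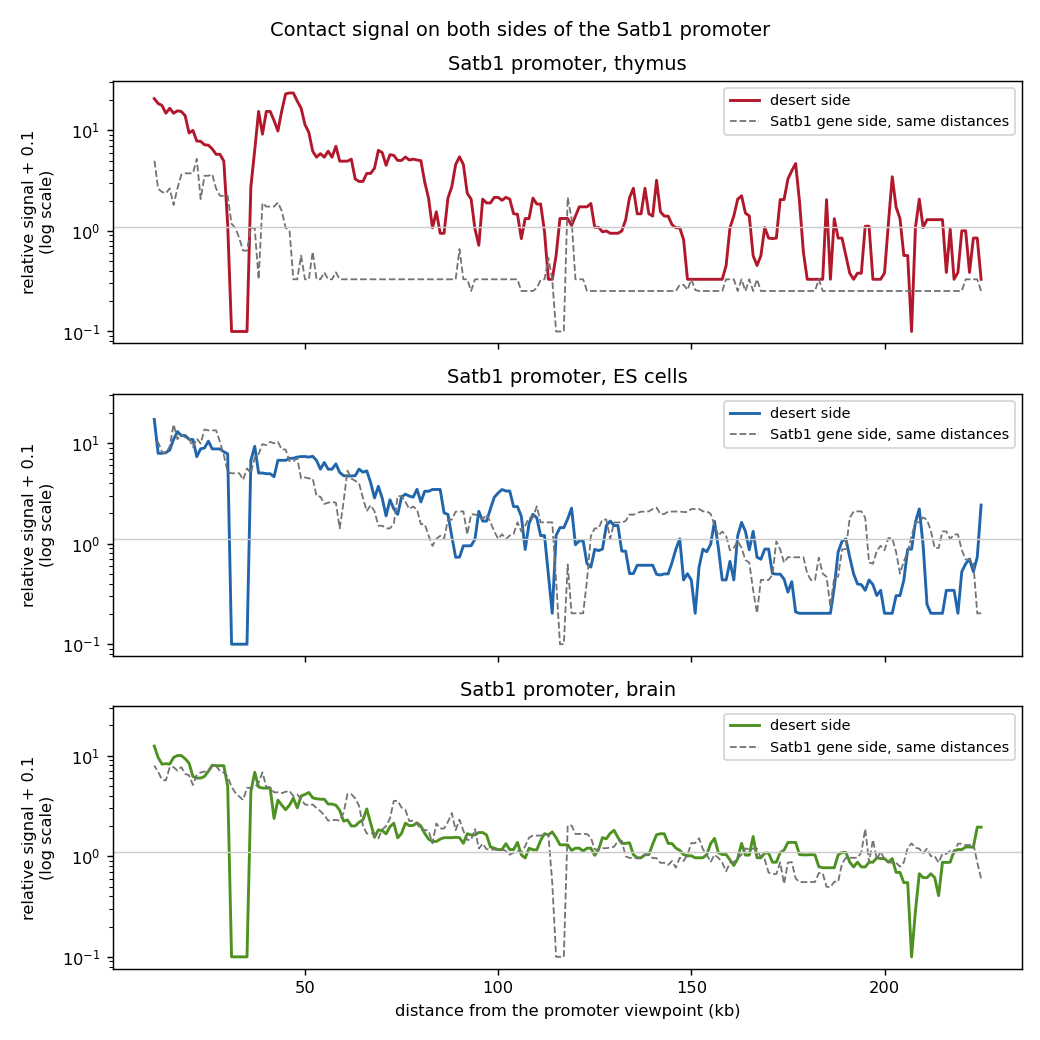
Relative signal plus 0.1 (log scale) against distance from the Satb1 promoter viewpoint in kb, for thymus, ES cells and brain (1 library each, 5 kb window); solid lines are the desert, dashed lines the Satb1 gene side at the same distances, and the grey line marks the library mean. In thymus the solid line lies above the dashed line at 202 of 215 distances, while in ES cells and brain the lines cross repeatedly; the desert line drops to empty at 52.005 to 52.009 Mb in all 3.

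The excess over the gene side in thymus ran along the whole desert. In 11 bins of 20 kb it ranged from 3.82-fold to 29.2-fold with a median of 5.02-fold, and all 11 bins lay above the gene side. The highest ratios were in the bins 46 to 66 kb (29.2-fold) and 66 to 86 kb (17.9-fold) from the promoter viewpoint. Their gene-side means were only 0.00240 and 0.00187. The second equals a low value that recurs in the thymus library, 0.230 times its mean, so the size of these ratios depends on that low divisor. From 86 kb outward the gene-side means were as low, 0.00124 to 0.00256, so the ratios there depend on it too. In the bins from 146, 186 and 206 kb the desert was itself below the library mean, with O/E of 0.977, 1.03 and 1.07. In ES cells 4 of 11 bins lay above the gene side, with ratios from 0.371 to 1.73. The highest were in the bins 46 to 66 and 66 to 86 kb away (1.55 and 1.73). In brain 4 of 11 did, with ratios from 0.748 to 1.52. Brain followed the expected decay most closely, with O/E between 0.885 and 1.16 over the 11 bins.

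Signal from the promoter fell with distance in all 3 tissues, but not evenly. In thymus the relative signal was 13.03 in the bin 6 to 26 kb away, 7.40 at 26 to 46 kb, 8.64 at 46 to 66 kb, 4.11 at 66 to 86 kb and 2.20 at 86 to 106 kb. In ES cells the same 5 bins stood at 10.2, 5.06, 5.94, 3.02 and 1.85, and in brain at 8.27, 3.89, 3.05, 1.75 and 1.34. The bin 26 to 46 kb away holds 5 empty positions, described below. Over its 15 filled positions relative signal was 9.87 (thymus), 6.75 (ES cells) and 5.19 (brain), above the next bin in each, so the bin means then fell from each of the first 5 bins to the next. Beyond 106 kb the levels of the remaining 6 bins were 0.720 to 1.41 (thymus), 0.352 to 1.12 (ES cells) and 0.760 to 1.26 (brain). The first 100 kb of the desert held 83.9% of its signal (thymus), 85.8% (ES cells) and 73.2% (brain).

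By O/E averaged over 10 kb, the highest named maximum from the promoter in thymus was at 52019000, 45 kb from the promoter viewpoint. The middle signal there was 0.185, with lower and higher window values of 0.0433 and 0.452. It was 0.0329 (0.0140 to 0.0520) in ES cells and 0.0565 (0.0216 to 0.103) in brain. At 52020000 and 52021000 the thymus signal was slightly higher, 0.189. Over the 10 kb around 52019000, from 52014000 to 52024000, relative signal was 16.8 (thymus), 6.32 (ES cells) and 3.51 (brain). At 45 kb the thymus level was close to that at 51.987 Mb, only 13 kb from the viewpoint, where relative signal was 16.6. O/E at 52019000 was 3.06 (thymus), 1.08 (ES cells) and 0.965 (brain). Its log2 O/E stayed above 0 in all 11 other settings, from 0.84 to 3.94.

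The next thymus peak, at 52.048 Mb and 74 kb from the promoter viewpoint, was lower. Its middle signal was 0.0398 (0.00187 to 0.0824) in thymus, 0.00920 (0.00201 to 0.0309) in ES cells and 0.0287 (0.0115 to 0.0587) in brain. Relative signal over 10 kb was 5.25, 2.68 and 1.80, and O/E was 2.12, 1.15 and 0.893. Among maxima in the top 25% of desert signal, the highest O/E in ES cells was 1.30 at 52.028 Mb, and brain had one at the same position with 1.12. All 3 tissues had a maximum between 51.987 and 51.990 Mb, with O/E of 1.70 (thymus), 1.00 (ES cells) and 1.15 (brain).

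Counted over positions, thymus was above the other tissues more often in the desert than along the locus as a whole. Thymus exceeded ES cells 2-fold in O/E at 71 of 215 desert positions (33.0%), beside 12.2% of all 1275 positions beyond 10 kb, and was 2-fold lower at 13 (6.05%), beside 27.3%. Thymus exceeded brain 2-fold at 62 (28.8%), beside 10.6%, and was lower at 33 (15.3%), beside 30.5%. ES cells exceeded brain at 8 (3.72%), beside 6.9%, and were lower at 40 (18.6%), beside 8.86%. Over the desert the median thymus difference in log2 O/E was 0.60 (from ES cells) and 0.59 (from brain), where all positions of the locus gave -0.07 and -0.10. Neighbouring positions share most of their 5 kb window, so these counts are of overlapping values. With the decay fitted on the desert side alone, thymus was 2-fold higher than ES cells at 24 positions and lower at 44, and than brain at 16 and 51.

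Thymus and ES cells differed most in the outer part of the desert, as means over the 10 kb around a position. At 52.154 Mb O/E was 1.97 in thymus and 0.326 in ES cells, with relative signals of 1.55 and 0.134. At 52.113 Mb it was 2.18 and 0.451, with relative signals of 1.79 and 0.448. The log2 differences were 2.60 and 2.28, and with the decay of the desert side alone 1.56 and 0.89. At 52.154 Mb itself both libraries sat at their recurring values, 0.230 times the mean in thymus and 0.103 in ES cells, and the thymus signal came from neighbouring positions within the 10 kb. The difference there was 0.083 with the lower column. ES cells held their recurring value at 19 of 220 desert positions, which have no order among them. Brain was close to expectation at both sites, with O/E of 1.10 and 1.15, so that ES cells were below brain too, by -1.75 and -1.35. The largest deficits of thymus from ES cells were at 52.128 Mb (-0.61) and 52.006 Mb (-0.55), and the largest excesses of ES cells over brain at 52.183 Mb (0.92) and 52.078 Mb (0.63). Of these 4, the signs at 52.128, 52.006 and 52.183 Mb turned in other settings, to 0.39, 0.31 and -0.76 at most. The longest unbroken run in which thymus exceeded ES cells 2-fold was 13 positions from 52.107 to 52.119 Mb, with mean relative signals of 1.69 and 0.478.

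Against brain, thymus exceeded most at the 52019000 peak, by 1.66 in log2 O/E, and at 52.181 Mb, by 1.39, with relative signals of 1.22 and 0.479 over the 10 kb around the latter, although 52.181 Mb itself was empty in both. The runs past 2-fold included 52.018 to 52.023 Mb, where relative signal averaged 20.2 in thymus and 3.25 in brain, and 52.042 to 52.052 Mb, with 5.17 and 1.75. Brain exceeded thymus most at 52.128 Mb, with an O/E of 1.01 against 0.407 (a difference of -1.31), and next at 52.006 Mb (-0.77), in the empty stretch described below. With the lower column the first was 0.19, and in the 20 kb window the second was 0.29. Around 52.128 Mb thymus stayed at its recurring value, 0.230 times the mean, over a run of 10 positions from 52.123 to 52.132 Mb, while brain averaged 0.992. The thymus profile was thus higher and more uneven than that of brain: 46 of its 215 desert positions had O/E above 2 (21.4%, beside 9.57% of the library). O/E was below 1/2 at 39 of 215, beside 469 of 1275 in the library (36.8%). In brain 2 positions were above 2 (0.930%, beside 1.33%) and 8 of 215 below 1/2, beside 65 of 1275 (5.1%). In ES cells 3 were above 2 (1.40%, beside 3.37%) and 52 of 215 below 1/2, beside 109 of 1275 (8.55%). The share below 1/2 was thus smaller in the desert than over the library in thymus and brain, and larger in ES cells.

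**Figure D2:**
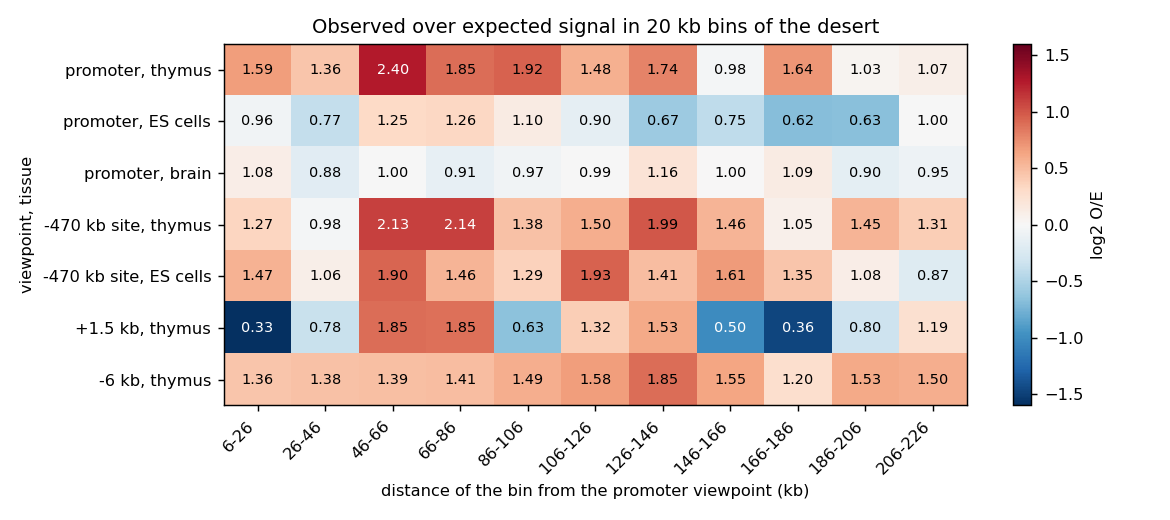
O/E in 11 bins of 20 kb of the desert (columns, labelled by distance from the promoter viewpoint in kb) for the 7 libraries (rows, viewpoint and tissue); colour is log2 O/E and the printed number is O/E. The bins 46 to 66 and 66 to 86 kb away stand between 1.85 and 2.40 in 3 of the 4 thymus libraries. The -6 kb thymus row holds 1.39 and 1.41 there. The ES row of the -470 kb viewpoint holds 1.90 and 1.46, and that of the promoter 1.25 and 1.26. The brain row, which has the promoter viewpoint only, stays between 0.885 and 1.16 over the 11 bins. Bins next to a viewpoint use only positions beyond 10 kb of it.

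Seen from the -470 kb site, which lies on the far side of the desert at a measured 446.25 kb from the promoter viewpoint, the near desert is 221.25 to 440.25 kb away. The middle signal there averaged 0.0273 in thymus (0.00853 to 0.0672) and 0.0111 in ES cells (0.00171 to 0.0438). Relative signal was 0.959 in thymus and 0.591 in ES cells, and thymus was the higher in all 11 bins of 20 kb, by 0.09 to 1.23 in log2. O/E over the desert was 1.51 in thymus and 1.34 in ES cells, so the difference of log2 O/E was 0.17. With the decay of the desert side alone, which sets each O/E near 1, it was -0.13. With the decay of both sides the difference split by bin, with 6 of 11 higher and 5 lower in thymus. Both tissues had more signal in the desert than at equal distances on the far side of this viewpoint (52641500 to 52860500), by 6.30-fold in thymus and 2.22-fold in ES cells. On that far side 52 of 219 positions in thymus sat at a single recurring value, 0.0545 times the library mean. In ES cells 82 of 219 did, at 0.0932 times the mean.

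From this distant viewpoint the desert profile in thymus peaked at 52.042 Mb. The middle signal there was 0.0760 in thymus (0.0165 to 0.173) and 0.0124 in ES cells (0.00153 to 0.0424). Relative signal over 10 kb was 1.83 in thymus and 0.742 in ES cells, and O/E was 2.81 and 1.97. A lower thymus maximum at 52.107 Mb had O/E 2.10, and a relative signal of 1.34, against 1.45 and 0.604 in ES cells. The highest O/E in ES cells was instead at 52.085 Mb with 2.38, where thymus had 1.40, followed by 52.136 Mb with 2.16 and 52.046 Mb with 1.68 (log2 O/E -0.61 without a decay). The first 2 of these had no partner within 10 kb in any other library. The 52.136 Mb maximum rests on the decay, since its relative signal was 0.978 and its log2 O/E without a decay was -0.030. The 52.085 Mb maximum was also close to the library mean, with a relative signal of 1.06. Its log2 O/E ranged down to 0.076 in the other settings.

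By positions, thymus was 2-fold above ES cells in O/E from the -470 kb site at 42 of 220 (19.1%, beside 13.4% of all 1276), and 2-fold below at 11 (5%, beside 19.3%). The largest excesses in thymus were at 52.178 Mb (0.97 in log2 O/E) and 52.066 Mb (0.92). The largest in ES cells were at 52.004 Mb (-0.92) and 52.087 Mb (-0.84). None of these 4 reached 2-fold. At 52.004 Mb itself the thymus library was empty and ES cells sat at their recurring value, 0.0932 times the mean. Of the desert's 220 positions, 47 had O/E above 2 in thymus (21.4%, beside 8.78%) and 50 in ES cells (22.7%, beside 7.29%).

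**Figure D3:**
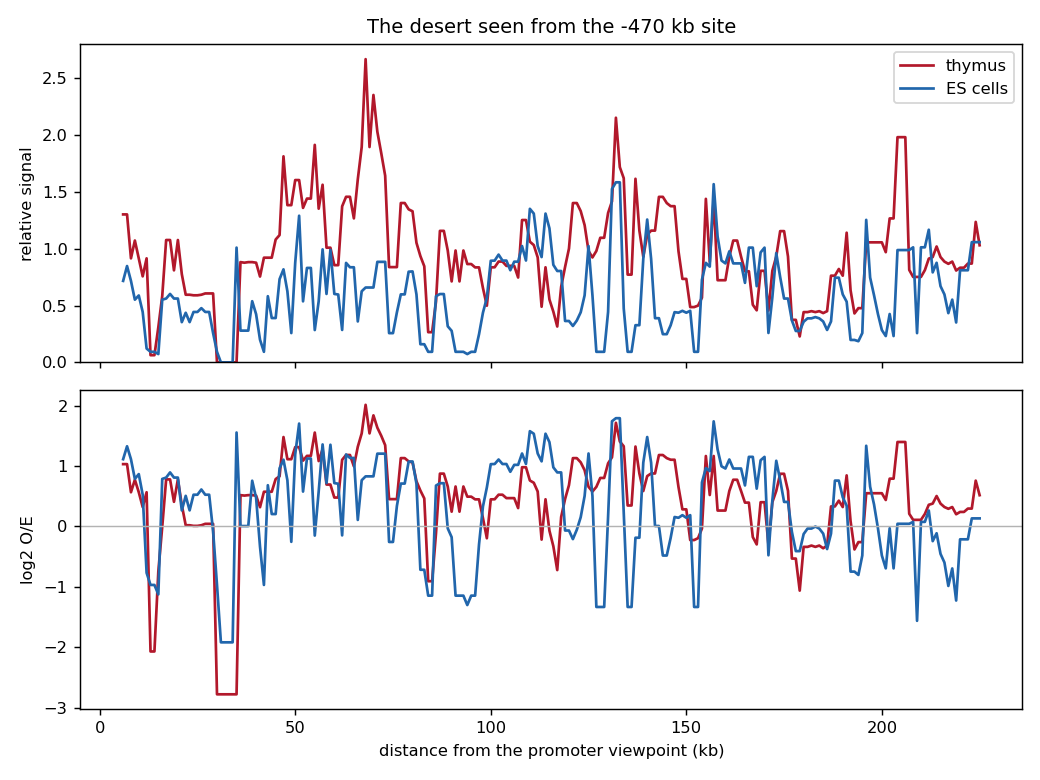
Relative signal (top) and log2 O/E (bottom) of the desert from the -470 kb viewpoint in thymus and ES cells (1 library each), against distance from the promoter viewpoint in kb. Thymus peaks at 52.042 Mb, 68 kb from the promoter viewpoint, where 10 kb average 1.83; in log2 O/E the lines interleave, with thymus higher in 6 of 11 bins.

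The neighbouring thymus viewpoints looked onto the desert from almost the same place. Their signal peaks were 3.5 kb (+1.5 kb viewpoint) and 3.0 kb (-6 kb viewpoint) from that of the promoter, on the gene side and the desert side. They gave different overall levels. Relative signal over the desert was 1.93 from +1.5 kb and 2.54 from -6 kb, against 3.56 from the promoter, and O/E was 0.984, 1.45 and 1.64. The desert exceeded the gene side 1.40-fold from +1.5 kb and 3.36-fold from -6 kb. It did so at 168 of 219 and 205 of 212 single distances. On the gene side of the +1.5 kb library 107 of 219 positions sat at a single recurring value, 0.0853 times the library mean.

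The +1.5 kb library had a low near edge and a strong rise beyond it. Its bin 6 to 26 kb from the promoter viewpoint stood at a relative signal of 1.95 with O/E 0.333, while those at 46 to 66 and 66 to 86 kb stood at 6.37 and 4.37 with O/E 1.85 in both. Its highest maximum, at 52.022 Mb, had a middle signal of 0.0824 (0.0328 to 0.165) and O/E 2.45, and the next, at 52.048 Mb, had 0.0775 (0.00825 to 0.135) and O/E 2.10. The lowest of the 3, at 52.109 Mb, had O/E 1.93. The profile sat at a recurring value, 0.178 times the library mean, at 54 of 220 positions (24.5%), more than in any other of the 7 libraries. Of these, 19 lay between the maxima and 35 beyond the last, and they have no order among them. O/E was below 1/2 at 87 of 219 desert positions, beside 516 of 1276 in that library (40.4%), about the same share. It was above 2 at 27 (12.3%, beside 9.72%).

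The -6 kb library was smoother. Its O/E ran only from 1.20 to 1.85 over the 11 bins, all above 1, and no recurring value other than 0 was frequent. Its highest maximum was at 52.117 Mb, with a middle signal of 0.133 (0.0751 to 0.225) and O/E 2.19. Maxima followed at 52.015 Mb with O/E 1.99 and at 52.046 Mb with 1.52. O/E was above 2 at 20 of 212 desert positions (9.43%, beside 3.37% of the library).

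**Figure D4:**
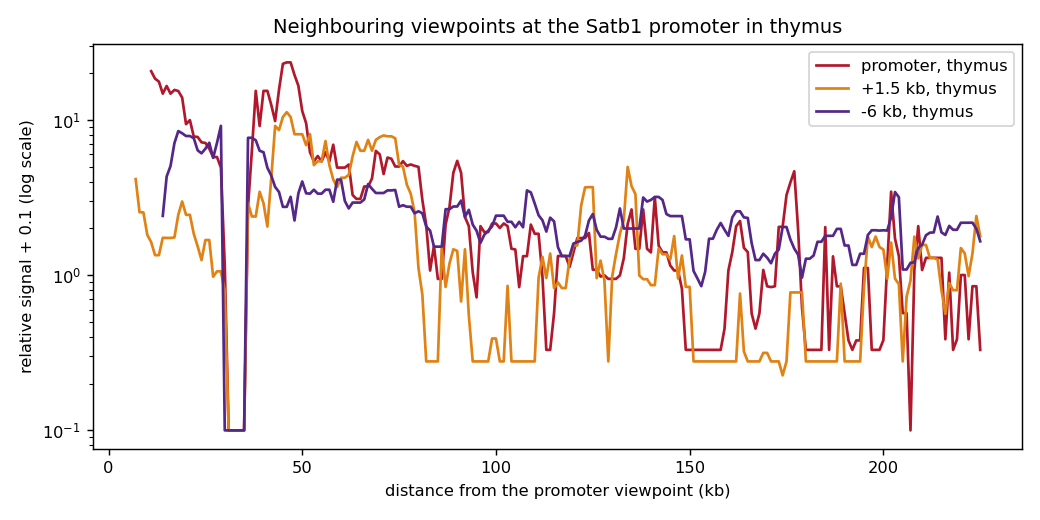
Relative signal plus 0.1 (log scale) across the desert from the promoter, +1.5 kb and -6 kb viewpoints in thymus (1 library each), against distance from the promoter viewpoint in kb. The promoter and +1.5 kb lines rise together at the maxima 52019000 and 52022000, which have O/E 3.06 and 2.45; the +1.5 kb line then drops to its recurring value at many positions, and all lines drop to empty at 52.005 to 52.009 Mb.

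Maxima recurred in up to 5 libraries. All 4 thymus libraries had a named maximum between 52.042 and 52.048 Mb, with O/E of 2.12 from the promoter, 2.10 from +1.5 kb, 1.52 from -6 kb and 2.81 from the -470 kb site, and the ES library of the -470 kb site had one at 52.046 Mb. ES cells and brain had none there from the promoter, with O/E at 52.046 Mb of 1.13 and 0.872. Their middle signals at 52.046 Mb, 0.0130 and 0.0376, were below their top 25% limits of 0.0167 and 0.0386. The promoter thymus maximum at 52.048 Mb passed narrowly, with 0.0398 against 0.0391. In ES cells the bin from 52.04 to 52.06 Mb had the highest O/E of the 11 from the promoter, 1.26. Maxima between 52.015 and 52.022 Mb were named from all 3 thymus viewpoints at the promoter, but not at the same place. From -6 kb, relative signal over 10 kb was 5.10 at its maximum, 52.015 Mb. It was lower, 3.15, at 52.022 Mb, where +1.5 kb had its highest maximum. These and the promoter maxima of ES cells and brain at 52.028 Mb lay within 10 kb of the promoter thymus maximum at 52019000, also 5 libraries in all. From the -470 kb site O/E at 52019000 was 1.84 in thymus and 1.43 in ES cells. A further group, 52.107 to 52.117 Mb, was named from +1.5 kb, -6 kb and the -470 kb site in thymus. The ES library of the -470 kb site had none named there, yet its O/E was 1.45 at 52.107 Mb and 1.82 at 52.109 Mb. Its middle signal at 52.109 Mb, 0.00175, was below the top 25% limit of 0.0164. From the promoter, O/E at 52.109 Mb was 1.82 (thymus), 0.655 (ES cells) and 1.07 (brain). These viewpoints were read with different enzyme pairs, and the rule limits maxima to the top 25% of desert signal, which from the promoter favours the near end.

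Across 42 bins of 5 kb, the log2 O/E profile from the promoter in thymus had a Spearman rho of 0.57 with that of the -470 kb site in thymus, 0.43 with +1.5 kb and 0.21 with -6 kb. With the promoter in ES cells and brain rho was 0.16 and 0.04, and with the -470 kb site in ES cells 0.23, above the value for -6 kb. The -470 kb site in thymus and +1.5 kb had the highest rho of all 21 pairs, 0.68. Pearson's r for these pairs, in the same order, was 0.80, 0.65, 0.82, 0.70, 0.76, 0.26 and 0.78. The highest r of the 21 was 0.92, between the promoter in brain and -6 kb in thymus, with a rho of 0.26. All libraries share an empty stretch, described next, whose part in r was not tested. Neighbouring bins overlap in their windows, so these values describe the profiles only.

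Between 52.005 and 52.008 Mb all 7 libraries were empty, with a middle signal under 1e-09 at the same 4 positions, whichever enzymes were used. The empty stretch reached 52.009 Mb in 6 libraries and began at 52.004 Mb in both the thymus library of the -470 kb site and that of -6 kb. Only 1 other desert position was empty, 52.181 Mb, from the promoter in thymus and brain. Each library thus had 4 to 6 empty desert positions, and 1.73% to 6.43% of positions beyond 10 kb were empty in the libraries as a whole. Sequencing depth is unknown for these files, so no counting interval can be given for any value.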

How the data were processed

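Contacts were measured by 4C-seq in 7 Satb1 libraries, 1 per group. Per the file names and the values, the authors deposited a normalized signal smoothed over 48 windows, with 3 columns per window (middle, higher, lower) in steps of 1000 bp; the files have no header. The order lower, middle, higher held at 100% of positions in the windows used. The build is mm9, per the submitters' processing notes. Aligner, read filters and depth, and which quantiles the outer 2 columns hold, were not given in the sources used here.

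Columns 11 to 13 (5 kb) were used. Viewpoints were placed at the highest signal, as the median over libraries of that viewpoint. The expected signal came from isotonic regression (scikit-learn 1.9.0) beyond 10 kb, with a pseudocount of 10% of the library mean. Calls were set at 2-fold. Scripts were tested on simulated data.

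Each library's O/E maxima were named, at most 3 (means within 5 kb, O/E above 1, spaced by 20 kb, among the 25% highest desert signals), as were, for every comparison, at most 2 sites of largest difference each way. The stretch, rules and sites were chosen with earlier results of these data known. Alternatives were windows of 2, 10 and 20 kb, other decays, pseudocounts of 5% and 20%, 20 kb left out, the outer columns, a start at 52000000 and the template pair's SD as threshold.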

Additional observations from a re-analysis of the deposited data

Results flagged for a closer look

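From the promoter, thymus exceeded ES cells in O/E in all 11 bins of 20 kb, whereas from the -470 kb site the sign turned in 5 of them. With 1 library per group these differences between viewpoints were not tested. In these 5 bins the -470 kb differences were all smaller in size than 0.42, the 20 kb bin SD of the template pair. With the decay of the desert side alone, which sets O/E over the desert near 1 by construction, the promoter difference over the whole desert was -0.034. In the bin starting at 51.98 Mb log2 O/E, thymus minus ES cells, was 0.72 from the promoter and -0.22 from the -470 kb site, a gap of 0.94. In that starting at 52000000 it was 0.82 and -0.12, a gap of 0.94, in that at 52080000 0.71 and -0.36, a gap of 1.07, and in that at 52120000 0.37 and -0.14, a gap of 0.52. The widest gap was in the bin starting at 52140000, with 1.39 and -0.36, a gap of 1.75. Without a decay, thymus relative signal was the higher from both viewpoints in all 11 bins.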

How the results depend on the processing

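Of 372 alternatives for single positions, 267 moved a log2 value by no more than the 20 kb bin SD of the template pair and 12 turned its sign, in 8 of 34 results; in 2 of the 12 the main value was past 2-fold. Over the desert 120 of 136 values stayed within that SD, although 30 turned sign, at least 1 for each of the 11 results, and 64 of 104 counts stayed within 1.5 times. The cause was not tested except where the construction of the alternative shows it. No paired analysis was possible because each group was 1 library. Depth is unknown, so what it limits cannot be given.

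Log2 O/E over the desert without a decay was 1.73 (promoter, thymus), 1.27 (ES cells), 0.98 (brain), -0.055 (-470 kb site, thymus), -0.67 (ES cells), 0.88 (+1.5 kb) and 1.27 (-6 kb). With the decay of the desert side alone, which sets it near 0 by construction, it was -0.035 (promoter, thymus), -0.10 (-470 kb site, thymus) and -0.0057 (-6 kb). That decay made the difference -0.034 for thymus minus ES cells and -0.022 for thymus minus brain. Scaled to the desert side without a decay, an alternative chosen after seeing the data, it was -0.32, 0.24 and, for ES cells minus brain, 0.56. From the -470 kb site without a decay it was 0.62.

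Of positions where thymus was 2-fold above ES cells from the promoter (71), there were 24 with the desert-side decay and 30 with the lower column. Of those below (13), there were 32 (2 kb window), 1 (10 kb), 0 (20 kb), 44 (desert-side decay), 24 (power law) and 3 (higher column). Above brain (62) there were 20 (20 kb), 16 (desert-side decay) and 39 (lower column), and below it (33) 18 (10 kb), 1 (20 kb), 51 (desert-side decay), 2 (higher column) and 12 (lower column). ES cells were above brain (8) at 19 (2 kb), 2 (10 kb), 0 (20 kb), 18 (power law), 23 (no decay), 5 (pseudocount 20%), 1 (higher column) and 19 (lower column), and below it (40) at 13 (20 kb), 23 (desert-side decay), 4 (higher column) and 23 (lower column). From the -470 kb site thymus was above ES cells (42) at 22 (10 kb), 3 (20 kb), 69 (no decay) and 13 (higher column), and below (11) at 25 (2 kb), 4 (10 kb), 0 (20 kb), 17 (desert-side decay), 4 (power law), 2 (no decay), 7 (pseudocount 20%) and 58 (lower column). Past 2-fold, the signs that turned were log2 O/E at 52.136 Mb from the -470 kb site in ES cells (-0.030 without a decay) and the thymus minus brain difference at 52.128 Mb (0.19 with the lower column). Below 2-fold, they were thymus minus ES cells at 52.128 Mb (0.13 in the 20 kb window, 0.39 with the higher and 0.23 with the lower column) and at 52.006 Mb (0.053 in the 10 kb and 0.31 in the 20 kb window), thymus minus brain at 52.006 Mb (0.29 in the 20 kb window), ES cells minus brain at 52.183 Mb (-0.028 and -0.76 in the 10 and 20 kb windows), and log2 O/E in ES cells at 52.046 Mb from the -470 kb site (-0.61 without a decay) and at 51.990 Mb from the promoter (-0.23 with the power law).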
